A study of Mus musculus with 13 samples.

Results

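The NuRD complex (nucleosome remodelling and deacetylase) couples a chromatin-remodelling ATPase to histone deacetylases and is a known partner of Ikaros in lymphocytes. The ATPase subunit is encoded by Chd4 or its paralog Chd3, and the deacetylases by Hdac1 and Hdac2. The scaffold proteins that hold the deacetylases are encoded by Mta1, Mta2 and Mta3. Mbd3 encodes a methyl-CpG-binding-domain protein of the complex, and Gatad2a and Gatad2b encode the GATA zinc-finger subunits that link it to the ATPase. These 10 genes, of 21579 named on the arrays, were chosen by name as known subunits, and every probe set annotated to them was taken, 25 of 45101 on the Affymetrix Mouse Genome 430 2.0 array and 12 of 35556 on the Gene 1.0 ST array. The question was whether the transcripts of this complex change when Ikaros itself is supplied to pre-B cells.

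All samples were cells of B3, a mouse pre-B cell line, transduced with a murine stem cell virus (MSCV) vector that also encodes GFP. On the 430 2.0 arrays, cells carrying HA-tagged wild-type Ikaros (HA-Ikaros-IRES-GFP, 2 arrays) were compared with cells carrying the DNA binding-deficient mutant 159A (HA-159A Ikaros-IRES-GFP, 2 arrays), both 48 h after infection. On Gene 1.0 ST arrays, cells carrying HA-Ikaros-ERt2-IRES-GFP, in which Ikaros is joined to a part of the estrogen receptor that 4-hydroxytamoxifen activates, had 3 arrays at 2 h of the drug and 3 at 6 h. Vector cells (ERt2-IRES-GFP, 3 arrays) were read after 6 h of 4-hydroxytamoxifen. No vector sample at 2 h and no Ikaros-ERt2 sample without 4-hydroxytamoxifen was analysed here, so a standing difference between the lines and a response to activation cannot be told apart. The 2 h and 6 h comparisons share the vector arrays. The titles call the samples biological replicates and name no separate cultures. The p-values therefore reflect array-to-array spread, which may be technical.

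On Gene 1.0 ST, Ikzf1, the gene of Ikaros, was 16.1-fold higher at 2 h and 15.9-fold higher at 6 h than in vector cells (limma log2 changes 4.01 ± 0.08 and 3.99 ± 0.08, SE; n = 3 per group; adjusted p = 6.0e-10 and 6.3e-10). The title and another label of vector-ERt2 replicate 1 disagree, the latter naming inducible Ikaros. Its Ikzf1 read 9.16, and the remaining vector samples read 9.25 and 9.39. At 48 h both groups carry an Ikaros construct, and the 2 Ikzf1 probe sets differed by 0.33 and -8.34 between Ikaros and 159A cells, so this gene does not check those labels. Of pre-B-cell markers, 10 of 10 measured on the 430 2.0 array and 9 of 11 on Gene 1.0 ST were above the filter on low values. On the 430 2.0 array, 7 of 8 fibroblast, 6 of 8 T-cell, 6 of 8 myeloid and 3 of 4 erythroid markers lay within 1 of the lowest value on every array. The counts above the filter, in the same order, were 1 of 8, 3 of 8, 4 of 8 and 1 of 4 on the 430 2.0 array, and 4 of 8, 3 of 8, 0 of 8 and 1 of 3 on Gene 1.0 ST.

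All values below are the deposited log2 values of 1 probe set, and a difference of 1 is a 2-fold change. Levels were compared between groups within a probe set, never between probe sets or array types. A probe set was called when limma's adjusted p (Benjamini-Hochberg over all probe sets tested on that array type) was under 0.05. A probe set was tested when its mean was above a cutoff of 2.38 on the 430 2.0 array or 5.10 on Gene 1.0 ST. Of the member probe sets, 22 of 25 and 11 of 12 were tested, and all 10 genes had at least 1 tested probe set on each array type. The remaining ones, with no fold given, were 1432979_at of Gatad2b, 1440113_at of Mta1 and 1443350_at of Mta3, at 2.19 to 2.23 on the 4 arrays, and 10447188 of Mta3, at 4.08 to 4.40 on the 9.

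In Ikaros-ERt2 cells the NuRD transcripts differed from those of vector cells by little, and none was called. By limma, 0 of 11 member probe sets were called at 2 h over vector, with 2 at an unadjusted p under 0.05. The background of all 13136 probe sets tested was 1.64% called and 14% at an unadjusted p under 0.05. At 6 h over vector, 0 of 11 were called and 2 had an unadjusted p under 0.05, against 5.33% and 17.2% of all probe sets. At 6 h over 2 h, 0 of 11 were called and 2 had an unadjusted p under 0.05, against 0.746% and 13.6%. The largest member change was 0.27 on the log2 scale, and every 95% confidence interval (limma) ended within 0.40 of 0 at 2 h, within 0.42 at 6 h and within 0.47 for 6 h over 2 h. Those ends correspond to changes of 1.32-fold, 1.33-fold and 1.39-fold in single probe sets. The median change of the 11 was 0.07 at 2 h and 0.08 at 6 h, where the medians over all probe sets were -0.01 and 0.00.

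**Figure D1:**
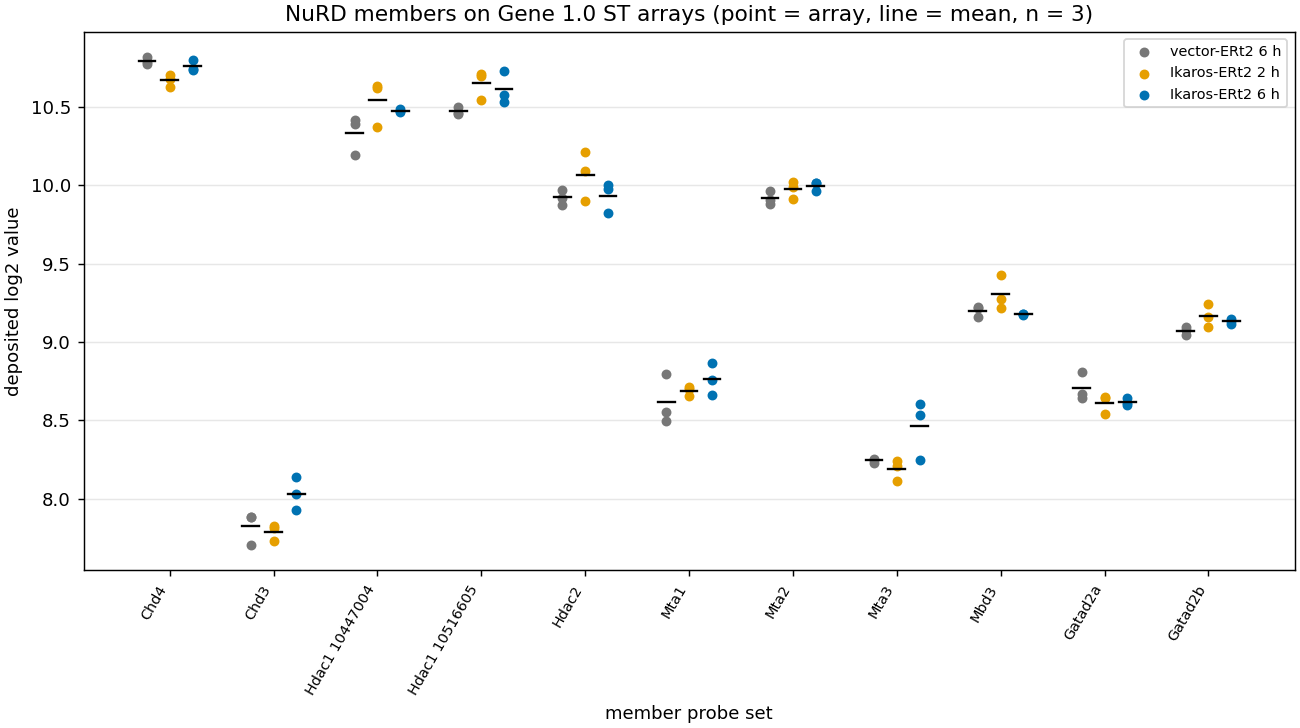
Deposited log2 value of each tested NuRD member probe set on the 9 Gene 1.0 ST arrays, with a point for each array and a line at each group's mean (n = 3), for vector-ERt2 cells at 6 h and Ikaros-ERt2 cells at 2 h and 6 h of 4-hydroxytamoxifen. The 3 groups lie close together in every probe set, and the largest range of group means is 0.27, in Mta3.

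Of the ATPase genes, Chd4 stood at 10.82, 10.77 and 10.78 in the vector arrays, at 10.68, 10.63 and 10.70 at 2 h and at 10.80, 10.74 and 10.74 at 6 h. The 2 h arrays all lay below the vector arrays and the 6 h arrays overlapped them. The 2 h difference was -0.12 ± 0.06 (SE, 95% interval -0.26 to 0.01; limma adjusted p = 0.407), and that at 6 h was -0.03 ± 0.06 (adjusted p = 0.876). Chd3 stood at 7.89, 7.70 and 7.89 in vector cells, at 7.82, 7.73 and 7.82 at 2 h and at 8.03, 7.93 and 8.14 at 6 h. All 6 h arrays lay above all others, while the vector and 2 h arrays overlapped. Chd3 differed by 0.21 ± 0.08 at 6 h over vector (95% interval 0.03 to 0.38, limma adjusted p = 0.198) and by 0.24 ± 0.08 at 6 h over 2 h (interval 0.06 to 0.42, adjusted p = 0.211), neither of which was called.

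Of the deacetylase genes, Hdac1 was read by 2 probe sets that carry the same transcript accessions and are not independent. Probe set 10516605 gave 10.50, 10.45 and 10.46 in vector cells, 10.71, 10.70 and 10.54 at 2 h and 10.57, 10.73 and 10.53 at 6 h. Its Ikaros-ERt2 arrays all lay above the vector arrays at both times, by 0.18 ± 0.08 at 2 h (limma adjusted p = 0.321) and 0.14 ± 0.08 at 6 h (adjusted p = 0.411). The other, 10447004, gave differences of 0.21 ± 0.09 and 0.14 ± 0.09, and its 2 h arrays overlapped the vector arrays (10.37 to 10.63 against 10.19 to 10.41). These 2 probe sets were the 2 with an unadjusted p under 0.05 at 2 h. Hdac2 gave 9.92, 9.87 and 9.97 in vector cells, 10.21, 9.90 and 10.09 at 2 h and 10.00, 9.97 and 9.83 at 6 h, and all 3 groups overlapped. Its differences from vector were 0.14 ± 0.09 at 2 h and 0.01 ± 0.09 at 6 h (limma adjusted p = 0.518 and 0.975).

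Of the scaffold genes, Mta3 stood at 8.25, 8.25 and 8.23 in vector cells, at 8.24, 8.11 and 8.21 at 2 h and at 8.60, 8.53 and 8.25 at 6 h. At 6 h, 2 of the arrays were high and replicate 3 was level with the vector arrays. The difference at 6 h was 0.22 ± 0.09 (95% interval 0.02 to 0.42, limma adjusted p = 0.241). Without Ikaros-ERt2 6 h replicate 3, it was 0.32 and was called (limma adjusted p = 0.0327). Over the 17 alternatives it ran from 0.15 to 0.32, with a limma adjusted p of 0.0327 to 0.585. At 6 h over 2 h the difference was 0.27 ± 0.09 (interval 0.07 to 0.47, adjusted p = 0.208), and no array of 6 h overlapped those of 2 h. Mta1 gave 8.50, 8.55 and 8.79 in vector cells, 8.66 to 8.71 at 2 h and 8.66 to 8.86 at 6 h, all overlapping. Mta2 gave 9.88 to 9.96 in vector cells, 9.91 to 10.02 at 2 h and 9.96 to 10.01 at 6 h. Its 6 h arrays lay just above the vector arrays, by 0.08 ± 0.06 in the mean (adjusted p = 0.627).

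Mbd3 gave 9.22, 9.16 and 9.23 in vector cells, 9.27, 9.43 and 9.22 at 2 h and 9.17, 9.18 and 9.18 at 6 h. Its 6 h arrays all lay below its 2 h arrays and overlapped the vector arrays. Its change was 0.10 ± 0.07 at 2 h, -0.02 ± 0.07 at 6 h and -0.13 ± 0.07 at 6 h over 2 h (limma adjusted p = 0.571, 0.929 and 0.469). Gatad2a stood at 8.64 to 8.81 in vector cells, 8.54 to 8.65 at 2 h and 8.60 to 8.64 at 6 h, with overlap at both times and a mean difference of -0.09 ± 0.07 at 6 h (adjusted p = 0.604). Gatad2b stood at 9.04 to 9.10 in vector cells, 9.09 to 9.25 at 2 h and 9.12 to 9.15 at 6 h, and only its 6 h arrays lay wholly above the vector arrays. Groups that did not overlap were thus found in 2 of 11 member probe sets at 2 h and in 5 of 11 at 6 h, 1 higher and 1 lower at 2 h and 5 higher at 6 h. Of all probe sets tested, 18.5% did not overlap at 2 h (9.34% higher and 9.19% lower), and 20.8% at 6 h (10.5% higher and 10.3% lower). At 6 h over 2 h the count was 4 of 11, 3 higher and 1 lower, against 14.6% of all (7.57% higher and 7.05% lower).

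The promoter sequences of RefSeq (GRCm38.p6, from 250 bases before to 50 after each start) were searched for TGGGAA, a sequence with the GGGAA core that Ikaros is known to bind, on both strands (TTCCCA on the other). Of 32851 promoters, 25.6% held it. Entries were matched by symbol for 7 of the 10 genes, with 10 promoters in all, and none was matched for Chd3, Hdac1 and Mta3. Of these 10 promoters 1 held the motif, and it is shown, although the gene was not called, because it is the one match among the members. It lies on the minus strand of chr8:69974502-69974557 in a promoter of Gatad2a, with the motif in capitals, starting 149 bases before the start site.
Gatad2a: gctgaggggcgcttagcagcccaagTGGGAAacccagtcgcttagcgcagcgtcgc
This is a match of letters, not a binding site, and Gatad2a was called in none of the 4 comparisons.

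**Figure D2:**
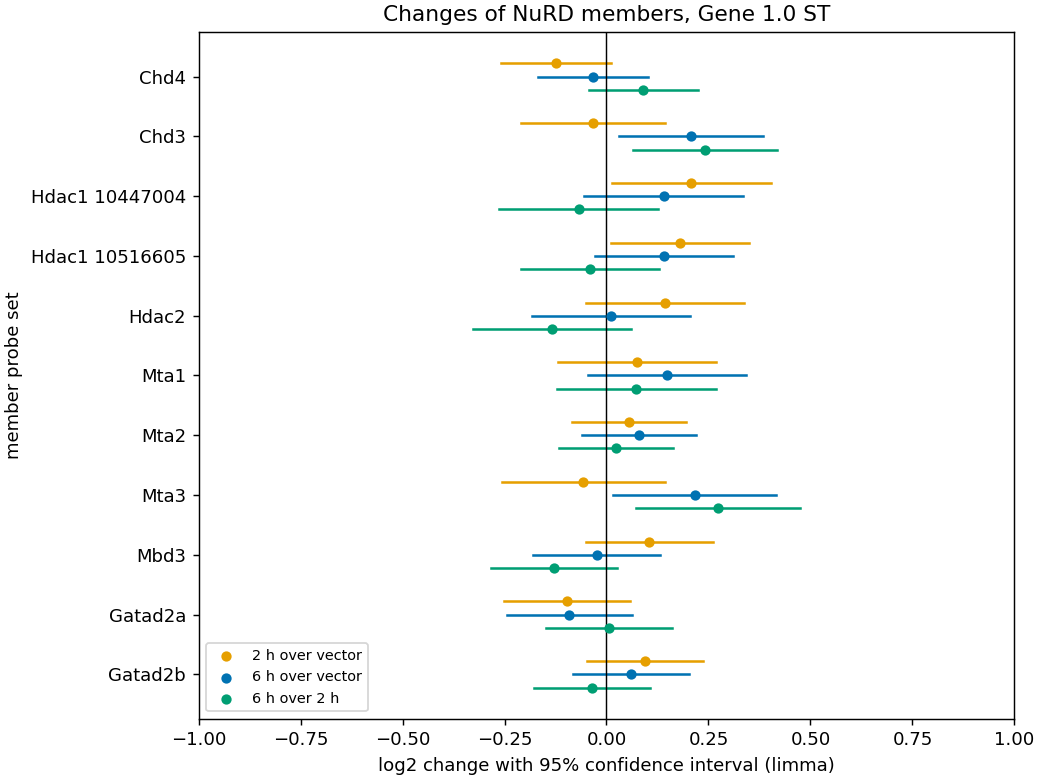
Log2 change of each NuRD member probe set on Gene 1.0 ST with its 95% confidence interval from limma, for Ikaros-ERt2 at 2 h over vector, at 6 h over vector and at 6 h over 2 h (n = 3 arrays per group). Every interval ends within 0.47 of 0, and the changes of Chd3 and Mta3 at 6 h over 2 h are the largest.

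The order of conditions was not the same among members. Chd3 and Mta3 were highest at 6 h and had 2 h means below vector, by 0.03 and 0.06. The Hdac1 probe sets, Hdac2, Mbd3 and Gatad2b had their highest mean at 2 h. In none of the 11 did neighbouring group means differ by an amount that limma called. Mta3 had the largest range of group means, 0.27, and the 5 probe sets of other genes most like it over the 9 arrays were those of Plekhb2 (Pearson r = 0.97), Sp140 (0.96), Tbc1d8b (0.95), Atp7a (0.95) and Tsr3 (0.95). These are the highest of 13135 correlations over 9 arrays and are given as a description.

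At 48 h, with Ikaros set against the 159A mutant, the spread between arrays was wider, and a few members stood apart without being called. Of 22 member probe sets tested, 0 were called by limma and 2, of Chd3 and Mta3, had an unadjusted p under 0.05. Of all 19949 probe sets tested, 10.6% were called and 29.5% had an unadjusted p under 0.05. The members' changes ran from -0.996 to 1.34 with a median of 0.02, where the median over all probe sets was 0. The median size of the change, sign left out, was 0.24 for the members and 0.46 over all, and 1 of 22 member probe sets differed by 1 or more, against 23.9% of all. The 95% intervals had half-widths of 0.19 to 2.93, with a median of 0.95, so that a 2-fold change of many members was not detectable here. The narrowest was of Gatad2b 1437507_at, which had the same value on all 4 arrays, so its width came only from the spread of other probe sets. Only 8 of 22 intervals ended within 1 of 0, among them this one and that of Gatad2a 1451198_at, whose values lay within 1 of the lowest. Of markers of other cells tested between the same groups, 1 of 4 T-cell probe sets was called, of Cd28, which fell by 3.02, and 1 of 4 myeloid probe sets, of Fcgr3, which rose by 5.19 in Ikaros cells (limma adjusted p = 0.0235 for both). The median change was -1.29 over the T-cell and 0.02 over the myeloid probe sets, and 0 of 1 fibroblast and 0 of 1 erythroid probe sets were called by limma (0 at an unadjusted p under 0.05). The mean level of the whole T-cell list was 3.12 to 3.42 over the 2 groups, and that of the myeloid list 2.66 to 3.10. Of 16 pre-B-cell probe sets, 6 rose and 3 fell. Their part in the members' values was not tested.

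**Figure D3:**
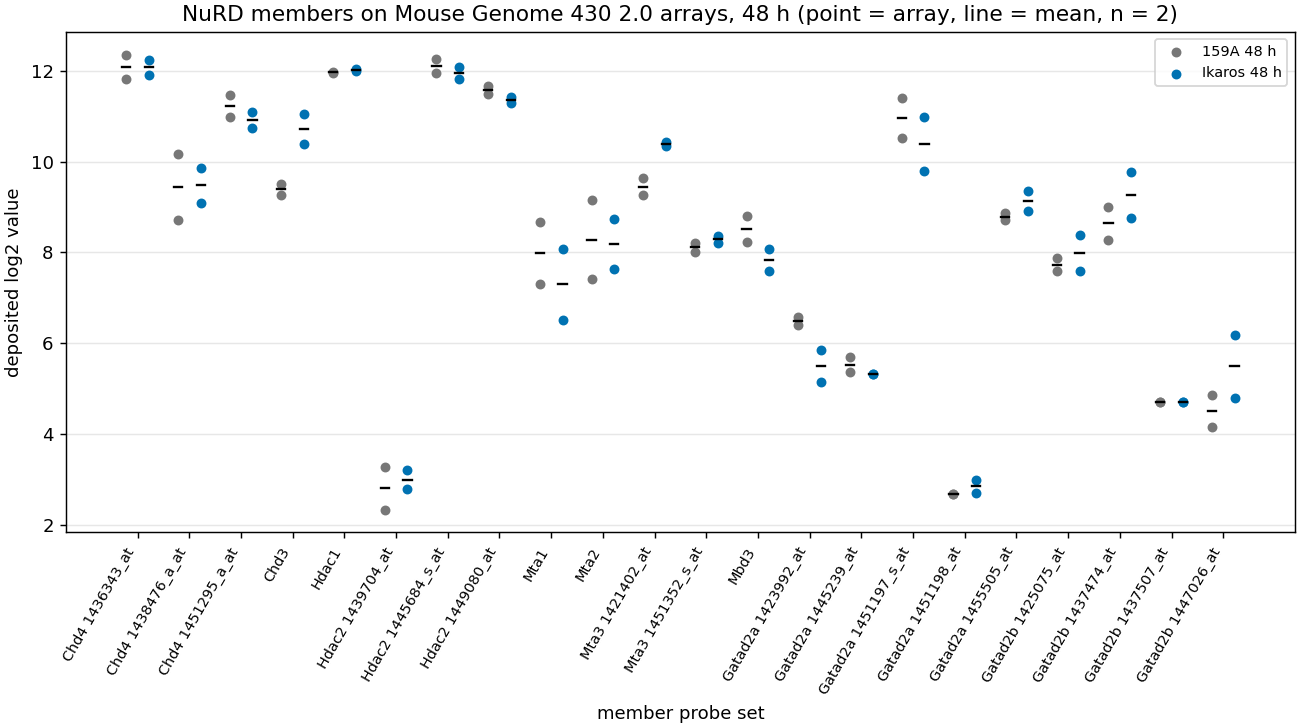
Deposited log2 value of each tested NuRD member probe set on the 4 Mouse Genome 430 2.0 arrays at 48 h, with a point for each array and a line at each group's mean (n = 2), for 159A and Ikaros cells. Chd3 and Mta3 1421402_at have both Ikaros arrays above both 159A arrays, while the arrays of 1 group lie up to 1.75 apart in Mta2.

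Chd3 showed the largest member difference at 48 h. Its probe set 1428466_at read 11.05 and 10.40 in Ikaros cells and 9.51 and 9.27 in 159A cells, with no overlap. Chd3 was 2.52-fold higher in the means (log2 change 1.34 ± 0.30, SE; 95% interval 0.34 to 2.33; limma adjusted p = 0.109), which was not called. With a filter that removed the lowest 60% of genes in place of 40%, the same change was called (limma adjusted p = 0.0417), and over the 11 alternatives its adjusted p ran from 0.0417 to 0.41. Chd4 was read by 3 probe sets. The brightest, 1436343_at, gave 12.25 and 11.90 in Ikaros cells and 12.35 and 11.83 in 159A cells. The others gave 11.10 and 10.75 against 11.47 and 10.99 (1451295_a_at), and 9.86 and 9.10 against 10.17 and 8.72 (1438476_a_at). The groups overlapped in all 3, and the changes were -0.01, -0.31 and 0.04, the first turning to 0.02 with the values quantile-normalized again.

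On Gene 1.0 ST Mta3 had the largest change of the scaffold genes at 6 h, over vector and over 2 h. At 2 h over vector it did not (-0.06, against 0.07 for Mta1). At 48 h Mta3 read 10.35 and 10.42 in Ikaros cells and 9.27 and 9.63 in 159A cells by 1421402_at. That is 0.94 ± 0.17 higher (1.91-fold; 95% interval 0.39 to 1.49; limma adjusted p = 0.0786), with an adjusted p of 0.0508 to 0.226 over the 11 alternatives. A further probe set of the gene, 1451352_s_at, gave 8.37 and 8.21 against 8.01 and 8.21, a change of 0.18 ± 0.12, so the probe sets of Mta3 disagree in size. Mta1 and Mta2 varied widely between replicates. Mta1 read 8.09 and 6.51 in Ikaros cells and 8.67 and 7.31 in 159A cells, and Mta2 read 8.74 and 7.64 against 9.16 and 7.41. In both genes replicate 1 lay above replicate 2 in each group by more than the groups differed. Mta1 was lower in the Ikaros array than in the 159A array of the same number for both numbers, while Mta2 went both ways. The change of Mta1 had a limma adjusted p of 0.663, and of 0.097 with the replicate number added to the fit (the replicate block), and was called in neither. Replicate 1 lay above replicate 2 in both groups in 14 of 22 member probe sets, and in 37% of all probe sets tested.

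The deacetylase genes differed by small amounts at 48 h. Hdac1 read 12.04 and 11.99 in Ikaros cells and 11.99 and 11.95 in 159A cells, with the lower Ikaros array just above the higher 159A array, a change of 0.04 ± 0.06 with an interval of -0.16 to 0.25. Hdac2 read 11.42 and 11.30 against 11.68 and 11.50 by 1449080_at, with no overlap and a change of -0.22 ± 0.11 (limma adjusted p = 0.324), and 12.09 and 11.81 against 12.26 and 11.96 by 1445684_s_at. The third probe set of the gene, 1439704_at, ranged from 2.33 to 3.27, and the lowest value on this array type is 2.19.

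Mbd3 read 7.59 and 8.07 in Ikaros cells and 8.22 and 8.80 in 159A cells. The groups did not overlap, and the change was -0.68 ± 0.32 (95% interval -1.75 to 0.39, limma adjusted p = 0.317). Gatad2a was read by 5 tested probe sets that went both ways, from -0.996 ± 0.32 for 1423992_at (5.85 and 5.14 against 6.57 and 6.40) to 0.34 ± 0.20 for 1455505_at (9.35 and 8.92 against 8.71 and 8.87). Its probe set 1451198_at stood within 1 of the lowest value in both groups. Gatad2b had 4 tested probe sets with changes of 0.00 to 0.99, none of them called, and 1 of these, 1437507_at, read 4.70 on all 4 arrays. In all, the groups did not overlap in 9 of 22 member probe sets, 5 higher and 4 lower. Of all probe sets, 54.4% did not overlap, 26.2% higher and 28.3% lower.

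Among further subunits and associates of the complex, the one that stood out was Mbd2, which encodes the methyl-CpG-binding protein that takes the place of Mbd3 in a separate form of NuRD. Of 9 such genes listed, 7 were tested at 48 h, by 16 probe sets. Of these 16, 4 were called, 2 of Mbd2 higher and 2 of Rbbp7 lower, and 8 had an unadjusted p under 0.05, against 10.6% and 29.5% of all probe sets tested. The list was chosen with earlier results of these data known, so these counts cannot test an excess over the background. The median change of the 16 was -0.03. Mbd2 read 12.13 and 12.00 in Ikaros cells and 10.20 and 10.16 in 159A cells by 1417165_at, and rose 3.68-fold (log2 change 1.88 ± 0.08, limma adjusted p = 0.0238). By 1425803_a_at it read 7.55 and 7.40 against 5.09 and 5.28 and rose 4.9-fold (2.29 ± 0.12, limma adjusted p = 0.0245). Rbbp7, a histone-binding subunit shared with other complexes, read 12.24 and 12.30 against 13.40 and 13.33 by 1415775_at and fell by 1.10 ± 0.07 (limma adjusted p = 0.0272). By 1456227_x_at it fell by 0.86 ± 0.10 (limma adjusted p = 0.0457). With any 1 of the 4 arrays left out, 1 group is a single array assumed to vary like the other, and no probe set of any gene was called. Those fits therefore cannot test these 4 calls. Of the alternatives that tested each probe set, the Mbd2 calls held in 5 of 11 (1417165_at) and 3 of 9 (1425803_a_at). Those of Rbbp7 held in 4 of 10 (1415775_at) and 4 of 11 (1456227_x_at). The replicate block, 1 of these alternatives, also called no probe set. With no filter on low values 95 probe sets were called, and these 4 were not among them. Quantile normalization again ended the call of Rbbp7 1456227_x_at. The changes kept their direction, with Mbd2 at 1.81 to 1.95 and 2.20 to 2.39 over the alternatives.

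**Figure D4:**
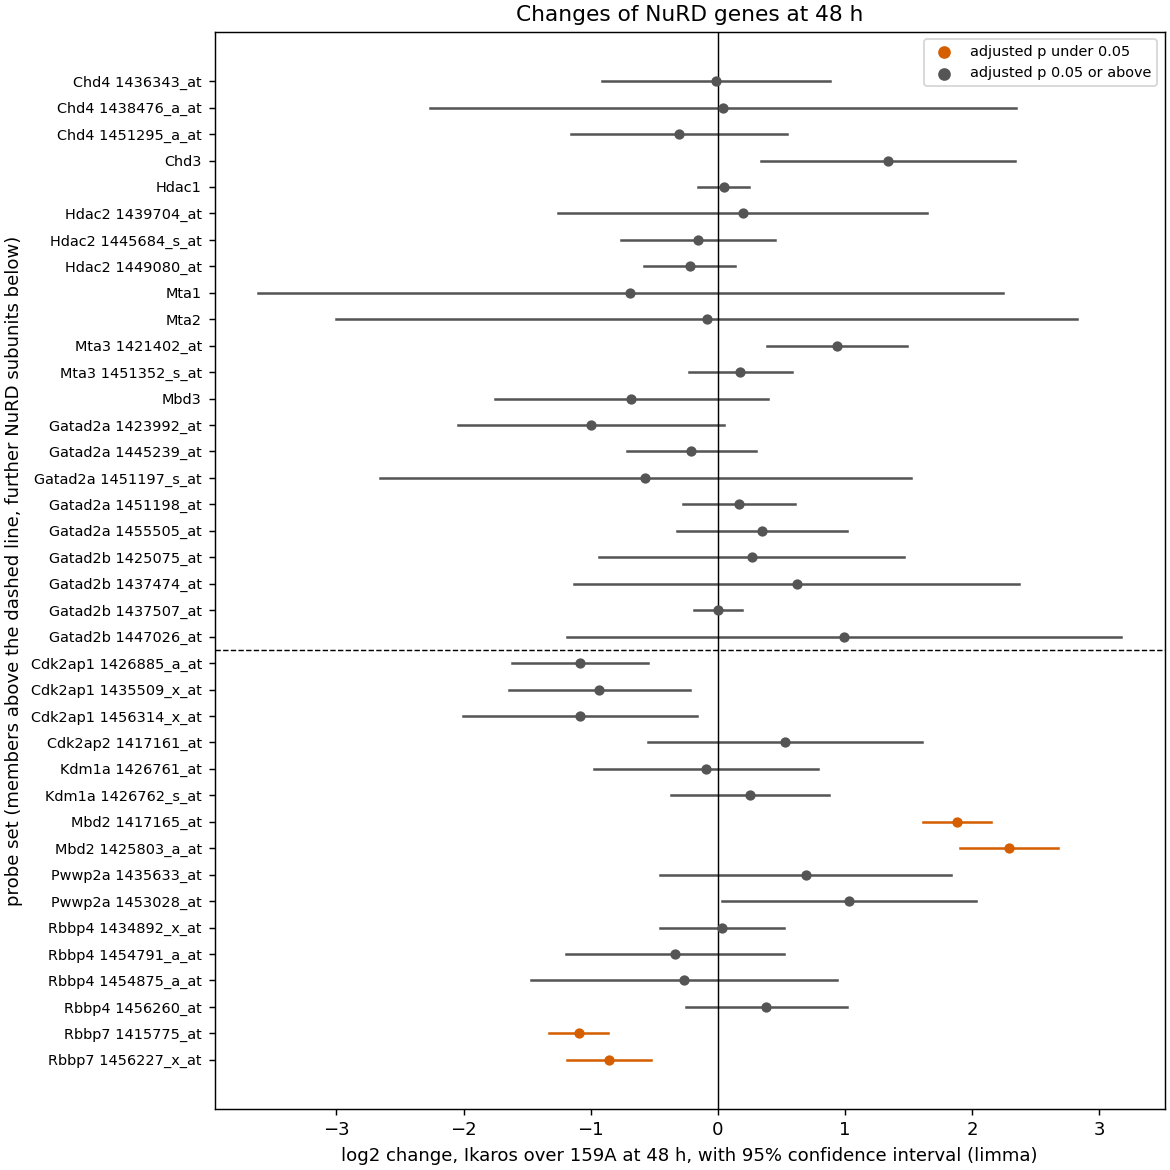
Log2 change of Ikaros over 159A cells at 48 h with its 95% confidence interval from limma for each tested probe set of the NuRD members, above the dashed line, and of further NuRD subunits and associates, below it (n = 2 arrays per group). Coloured points are called (adjusted p under 0.05), and these are the 2 probe sets each of Mbd2 and Rbbp7.

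The other further subunits were not called at 48 h. Cdk2ap1, a small subunit of the complex, was lower by 3 probe sets with no overlap (changes of -1.09, -0.93 and -1.09; limma adjusted p = 0.0619, 0.113 and 0.132). These 3 read 1 gene, and 28.3% of all probe sets tested at 48 h were lower with no overlap. Rbbp4, the paralog of Rbbp7, had 4 probe sets with changes of -0.34 to 0.38. Kdm1a, a histone demethylase that can join NuRD, differed by -0.09 and 0.25. At 2 h, 6 h and 6 h over 2 h, 0 of 10 probe sets of these genes were called by limma, with 1, 0 and 1 at an unadjusted p under 0.05. Of all probe sets tested, 1.64%, 5.33% and 0.746% were called, and 14%, 17.2% and 13.6% had an unadjusted p under 0.05. On these arrays Mbd2 differed by 0.04 ± 0.09 at 2 h and 0.19 ± 0.09 at 6 h (limma adjusted p = 0.321 at 6 h). Its 6 h arrays all lay above the vector arrays, as in 10.5% of all probe sets tested. Rbbp7 differed by 0.24 and 0.21 at 2 h and by 0.00 and 0.01 at 6 h by its 2 probe sets.

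Other chromatin complexes and NuRD-binding proteins were read from further lists, against shares called over all probe sets of 10.6% at 48 h, 1.64% at 2 h, 5.33% at 6 h and 0.746% at 6 h over 2 h. The shares at an unadjusted limma p under 0.05 were 29.5%, 14%, 17.2% and 13.6% in the same order. Of the Sin3 complex, which shares Hdac1 and Hdac2 with NuRD, 0 of 24 probe sets were called by limma at 48 h (3 at an unadjusted p under 0.05) and 0 of 11 in each of the 3 Gene 1.0 ST comparisons (1, 1 and 0). Of SWI/SNF, an ATP-dependent remodeller, Smarcb1 fell by 0.80 at 48 h (1 of 30 probe sets, limma adjusted p = 0.0468), and the ATPase gene Smarca4 rose by 0.37 at 6 h (1 of 19, limma adjusted p = 0.0494). The median change of the 30 at 48 h was 0.39, opposite in sign to that of Smarcb1, against 0.00 over all probe sets. An unadjusted limma p under 0.05 was found for 7 of 30 at 48 h and for 2, 3 and 3 of 19 at 2 h, 6 h and 6 h over 2 h. Of other CHD genes, Chd2 rose by 0.48 at 6 h (1 of 37 probe sets, limma adjusted p = 0.0482). Here an unadjusted limma p under 0.05 was found for 3 of 17 at 48 h and for 4, 6 and 1 of 37 at 2 h, 6 h and 6 h over 2 h. Of Polycomb repressive complex 2, the methyltransferase gene Ezh2 rose by 0.38 at 2 h (1 of 7 probe sets, limma adjusted p = 0.0457) and by 1.56 at 48 h, where Jarid2 rose by 1.45 and Phf19 fell by 1.03 (4 of 19, 3 higher and 1 lower). For this complex 3, 5 and 1 of 7 had an unadjusted limma p under 0.05 at 2 h, 6 h and 6 h over 2 h, and 6 of 19 at 48 h. Its median change at 6 h over vector was 0.20, against 0.00 over all probe sets, with 0 of 7 called. Leaving out 1 array ended the call of Smarca4 for 8 of 9 arrays, of Chd2 for 7 of 9 and of Ezh2 at 2 h for 8 of 9. At 48 h no probe set of any gene was called with an array left out. Those fits therefore cannot test the calls of Smarcb1, Ezh2, Jarid2 and Phf19. Of the alternatives that tested each probe set, the Smarcb1 call at 48 h held in 1 of 10. The 48 h calls of Ezh2, Jarid2 (1450710_at) and Phf19 held in 5 of 11, 3 of 9 and 5 of 10. The 60% filter, quantile normalization again and eBayes with trend and robust called 2473, 2584 and 1693 probe sets. The Smarcb1 probe set was not among them in any of these settings. Of the zinc-finger proteins that recruit NuRD, Bcl11a fell by 0.85 at 6 h (limma adjusted p = 2.6e-04), a call that held in all 17 alternatives. It also fell by 0.59 at 6 h over 2 h (limma adjusted p = 0.0112), a call that held in 15 of 17. Besides Bcl11a, only Ikzf1 was called among the 8 probe sets of this list on Gene 1.0 ST, higher at 2 h and at 6 h over vector. At 48 h 4 of 11 probe sets of this list were called, all lower, 3 of Bcl11a and 1 of Ikzf1. Ikzf1 is the gene carried by the Ikaros constructs, so its calls on either array type are no result about this list. Its other 48 h probe set, 1421303_at, differed by 0.33 and was not called (limma adjusted p = 0.201). The 3 remaining calls at 48 h read 1 gene, Bcl11a. An unadjusted limma p under 0.05 was found for 6 of 11 at 48 h and for 2, 3 and 1 of 8 at 2 h, 6 h and 6 h over 2 h. Bcl11a fell by 2.25 by 1419406_a_at (limma adjusted p = 0.0238), a call that held in 5 of 11 alternatives. The replicate block and the fits with an array left out, which are among the 11, called no probe set of any gene. Of the CoREST and CtBP genes and of the other class I deacetylase and NCoR genes, 0 probe sets were called by limma in any comparison, with 1 in all, at 48 h, at an unadjusted p under 0.05.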

How the data were processed

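RNA of 13 samples was hybridised to 2 Affymetrix array types. The deposited values are log2 values, 1 per probe set and array, made by the authors. The tools listed in the submitters' processing notes are affy, limma, RMA and GCRMA, with no version and no array type. Background and normalization settings: not given in the sources used here. Of the 430 2.0 values, 36.7% were within 0.01 of the floor, and changes near it have no exact size. Gene symbols came from the GEO platform annotation, and probe sets with 1 symbol were kept (34958 and 21789). Those with a mean above the level that removes the lowest 40% of genes, each gene at its brightest probe set, were tested (19949 and 13136). limma 3.58.1 in R 4.3.3 (lmFit, eBayes, two-sided) was fitted to each array type alone, with the 3 Gene 1.0 ST groups in 1 fit. It was tested on simulated data. Alternatives were no filter and a 60% filter, 1 probe set per gene, quantile normalization again, median centring, the replicate block, eBayes with trend and robust, the 2 groups alone, and each array left out. Of each list besides the members, up to 3 called probe sets per comparison were named by smallest p, apart from Mbd2, Rbbp7, Cdk2ap1, Rbbp4 and Kdm1a, which were described after their values were seen. Ikzf1 was always named. The members and lists were chosen with earlier results of these data known.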

Additional observations from a re-analysis of the deposited data

Results flagged for a closer look

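Mbd3 and Mta3 on Gene 1.0 ST had arrays on opposite sides of the vector mean at the 2 times. The Mbd3 arrays at 2 h all lay above the vector mean and those at 6 h all below it, with a difference of -0.13 at 6 h over 2 h (changes over vector of 0.10 and -0.02). The Mta3 arrays at 2 h all lay below the vector mean and those at 6 h all above it, with a difference of 0.27 (changes of -0.06 and 0.22). The test of the difference between the times called neither (limma adjusted p = 0.469 and 0.208). The Mbd3 arrays at 6 h, at 9.17 to 9.18, lay within the range of the vector arrays, 9.16 to 9.23. Replicate 3 of Mta3 at 6 h read 8.25, the same as vector replicate 1. This rule was applied to the members only, and the share of all probe sets that meet it was not counted.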

How the results depend on the processing

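The count of 0 called members held in all 17 alternatives at 2 h and for 6 h over 2 h. At 6 h it held in 16 of 17 (1 without Ikaros-ERt2 6 h replicate 3, Mta3), and at 48 h in 10 of 11 (1 with the 60% filter, Chd3). Some of these alternatives called no probe set at all, so that 0 members was the only possible count. They were the replicate block and each array left out at 48 h, and the 2 groups alone for 6 h over 2 h. Of the member changes, none of which was called in the values reported, 13 of 224 values at 48 h and 1, 3 and 7 of 186 at 2 h, 6 h and 6 h over 2 h had the opposite sign under an alternative. Over all probe sets, the 48 h count of 2118 was 95 with no filter, 0 with the replicate block and 0 when any array was left out (3645 to 6074 at an unadjusted p under 0.05). The 2 h count of 216 was 141 with no filter and 76 to 264 with an array left out, with 83 without vector-ERt2 6 h replicate 1 or Ikaros-ERt2 2 h replicate 1, 76 without vector replicate 2 and 107 without vector replicate 3. The 6 h count of 700 was 324 to 694 with an array left out, falling to 345 without Ikaros-ERt2 6 h replicate 1 and to 324, 400 and 390 without vector replicates 1, 2 and 3. The count of 98 for 6 h over 2 h was 56 with no filter, 159 quantile-normalized again, 52 centred, 0 with these 2 groups alone (1410 at an unadjusted p under 0.05) and 8 to 170 with an array left out. The cause was not tested. Same-numbered arrays deviated together with r = 0.56 at 48 h, from 2 arrays per group. On Gene 1.0 ST r was -0.25 to 0.25, and 10 of 18 best matches had the same number. The numbers were not taken as pairs on either array type. At 48 h, whether they mark pairs was not tested. The 48 h limma intervals and adjusted p, apart from those of the replicate block, take no account of pairing. With the replicate block the lowest member limma adjusted p was 0.0781 at 48 h. An unadjusted limma p under 0.05 was then found for 6 of 22 member probe sets, from 2 without the block, and for 7285 of all 19949, from 5889. The number of arrays limits the precision.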
